A study of Sus scrofa with 18 samples.

Results

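The RAS and RAF genes described here are HRAS and NRAS (classical RAS GTPases), RRAS, RRAS2 and MRAS (R-RAS-type GTPases), and BRAF and ARAF (RAF kinases). They were taken by gene symbol from a table of 27339 pig genes, in which 7 of the 7 were found, and 6 passed the filter on low counts. RRAS2 did not pass it. Other RAS genes of the table are not described here. RNA sequencing of polyadenylated RNA gave 18 libraries in 6 groups of 3. DIK is a pig line with a double knock-in of elements of the Tet-on switch, which turns a gene on with doxycycline, and of the phiC31 integrase, a recombinase. At 7 months, DIK founders and age-matched wild-type (WT) pigs were given doxycycline. Tissue was taken 8 months after induction, when 1 founder carried tumours of the nose, mouth and scrotum. The groups are DIK nose, DIK mouth and DIK scrotum (tumour) and WT nose, WT mouth and WT scrotum (normal tissue), all exposed to doxycycline. All 9 DIK libraries thus come from 1 animal, and how many WT animals were sampled is not stated in the labels. The labels do not name the genes under the control of the switch. P-values therefore measure the spread between these libraries, which may be technical, and not between founders.

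RAS proteins are membrane-bound GTPases that signal while bound to GTP: exchange factors such as SOS load them, and GTPase-activating proteins such as neurofibromin switch them off. GTP-bound RAS recruits RAF kinases to the membrane, where they phosphorylate MEK, which phosphorylates ERK. RRAS is known for integrin adhesion and for high levels in smooth muscle and vessel walls, and MRAS forms a complex with SHOC2 and protein phosphatase 1 that removes an inhibitory phosphate from RAF. In stratified epithelium the pathway drives keratinocyte growth, and activating HRAS mutations are classical drivers of experimental skin tumours. Messenger RNA counts measure neither GTP loading nor mutations.

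Total counts ran from 418665 in WT nose replicate 1 to 5041470 in WT nose replicate 3, so that 3 counts were worth 0.483 to 5.76 counts-per-million (CPM). The summed level of 15 posterior HOX genes, which are normally expressed in the hind part of the body, was 42.2 to 70.8 CPM in WT mouth libraries, 3.36 to 6.52 CPM in WT scrotum libraries and 1.83 to 3.42 CPM in WT nose libraries. In DIK libraries it was 11.7 to 20.4 CPM under the mouth label and 0.625 to 4.19 CPM under the scrotum label. These values go against the mouth and scrotum labels, which are therefore used only as labels. Keratinocyte markers summed to 24390 to 65350 CPM in the DIK libraries and to 120.6 to 1638 CPM in WT libraries, apart from WT scrotum replicate 2 at 13900 CPM. Smooth muscle markers summed to 1206 to 6037 CPM in DIK libraries and 6937 to 176600 CPM in WT libraries, where the lowest was again WT scrotum replicate 2. Proliferation markers were at 130.5 to 256.3 CPM in DIK and 5.76 to 39.7 CPM in WT libraries. Immediate early and heat shock genes, which can respond to tissue handling, summed to 356.1 to 1489 CPM in DIK and 60.2 to 199.7 CPM in WT libraries, and their part in the results was not tested. In bulk RNA, fewer cells of a type and less RNA per cell cannot be told apart.

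The RAS and RAF genes moved in both directions in the DIK libraries. HRAS, NRAS and BRAF were higher, and RRAS, MRAS and ARAF were lower, in the mean over the 3 labels of the DIK minus WT difference. The differences ran from 1.82-fold higher for BRAF to 4.05-fold lower for RRAS. Of 6 members tested, 3 were called higher, where 31.2% of all 12895 genes tested were, and 3 lower, where 33.0% were. A call is an adjusted p under 0.05 in edgeR's quasi-likelihood test. Under the nose label 2 of the 6 were higher (background 21.9%) and 3 lower (20.1%). Under the mouth label 3 were higher (22.7%) and 2 lower (24.3%). Under the scrotum label 1 was higher (19.4%) and 2 lower (24.0%). Calls were common over the whole table, so these counts are not read as a result about the members, which are described singly in what follows. NRAS reached the count limit in 8 DIK and 0 WT libraries and MRAS in 0 DIK and 7 WT libraries, so both could pass the filter only by being high in 1 genotype.

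**Figure D1:**
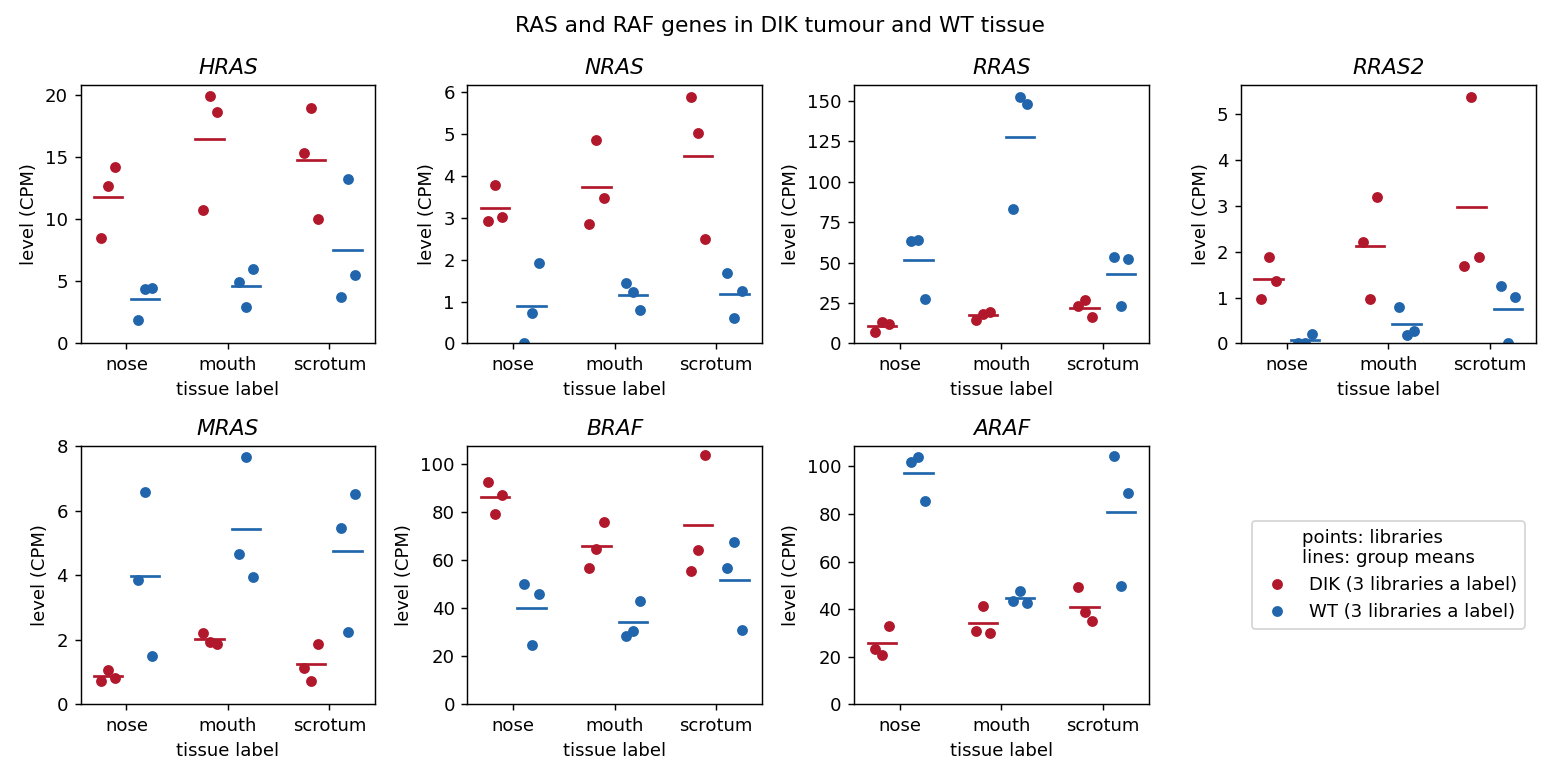
Level of each gene in counts-per-million (CPM, linear axis from 0, with its own scale for each gene) under each tissue label in the 18 libraries; points are libraries, red for DIK and blue for WT, 3 in each group, and lines are group means. The mean lines of HRAS, NRAS, RRAS2 and BRAF are higher for DIK under each label, and those of RRAS, MRAS and ARAF are higher for WT.

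HRAS, the RAS gene best known from skin tumours, was higher in the DIK libraries. It was at 8.50, 12.6 and 14.2 CPM in DIK nose and 1.92, 4.38 and 4.49 CPM in WT nose. It was at 10.8, 19.9 and 18.7 CPM in DIK mouth and 4.99, 2.96 and 6.03 CPM in WT mouth. It was at 15.4, 18.9 and 10 CPM in DIK scrotum and 3.78, 13.2 and 5.52 CPM in WT scrotum. The groups did not overlap under the nose and mouth labels, and WT scrotum replicate 2, with the keratinocyte markers at 13900 CPM, lay inside the range of DIK scrotum. The log2 difference was 1.51 ± 0.47 (SE, edgeR adjusted p = 0.0147) under the nose label and 1.83 ± 0.42 (edgeR adjusted p = 0.00154) under the mouth label. Under the scrotum label it was 0.94 ± 0.41 (edgeR adjusted p = 0.0727, 95% interval 0.08 to 1.81), which missed the threshold. Without WT scrotum replicate 2 HRAS differed by 1.65 under that label (edgeR adjusted p = 0.00272, with 0.00272 to 0.242 over the alternatives). The mean over the labels was 1.43 ± 0.25 (edgeR adjusted p = 6.87e-05).

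NRAS, a second classical RAS gene, was read at low counts: the group sums were 37, 42 and 39 in DIK nose, mouth and scrotum and 11, 19 and 12 in the WT groups. Its level was 2.91, 3.77 and 3.00 CPM in DIK nose against 0, 0.730 and 1.92 CPM in WT nose. It was 2.85, 4.86 and 3.46 CPM in DIK mouth against 1.45, 1.22 and 0.787 CPM in WT mouth, and 5.87, 5.005 and 2.5 CPM in DIK scrotum against 1.68, 0.611 and 1.25 CPM in WT scrotum. All 9 DIK libraries lay above all 9 WT libraries, which held for NRAS and no other of the 6 tested members, and for 15.8% of all genes in either direction. Since NRAS could pass the filter only through the DIK libraries, this separation is not read as a trait of NRAS. The level of 0 is the shallow WT nose replicate 1, where 3 counts are worth 5.76 CPM. NRAS was higher by 1.64 ± 0.50 under the mouth label (edgeR adjusted p = 0.0112) and by 2.03 ± 0.53 under the scrotum label (edgeR adjusted p = 0.00496). Under the nose label the difference was 1.31 ± 0.56 (edgeR adjusted p = 0.0684, 95% interval 0.13 to 2.49). The nose call was made without WT nose replicate 3 (NRAS at 2.38, edgeR adjusted p = 0.034). The mouth call was lost without DIK mouth replicate 2 (1.41, edgeR adjusted p = 0.0591). The mean over the labels was 1.66 ± 0.31 (edgeR adjusted p = 0.000118).

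RRAS, the R-RAS gene of smooth muscle and vessels, had the largest estimated fall among the members under the nose and mouth labels and in the mean over the labels, but not under the scrotum label. It was at 7.04, 13.2 and 11.7 CPM in DIK nose against 63.3, 63.9 and 27.8 CPM in WT nose. It was at 14.6, 18.5 and 19.2 CPM in DIK mouth against 82.9, 152.5 and 147.7 CPM in WT mouth. It was at 23.2, 27.2 and 16.2 CPM in DIK scrotum against 53.7, 23.4 and 52.4 CPM in WT scrotum. The groups were apart under the nose and mouth labels and overlapped under the scrotum label, through WT scrotum replicate 2. RRAS fell by 2.25 ± 0.40 under the nose label (edgeR adjusted p = 0.00023) and by 2.87 ± 0.39 under the mouth label (edgeR adjusted p = 1.51e-05). Under the scrotum label the RRAS difference was -0.94 ± 0.38 (edgeR adjusted p = 0.0501, 95% interval -1.73 to -0.15), and -1.24 without WT scrotum replicate 2 (edgeR adjusted p = 0.00646, with 0.00616 to 0.162 over the alternatives). It was also called without DIK nose replicate 1, WT nose replicate 3 or WT mouth replicate 1 (edgeR adjusted p = 0.045, 0.0357 and 0.0336), where the difference stayed within -0.96 to -0.94. The mean was -2.02 ± 0.22 (edgeR adjusted p = 3.4e-07). Smooth muscle markers were highest in the group with the highest RRAS: their sum was 98430 to 176600 CPM in WT mouth. It was 23970 to 36200 CPM in WT nose, 6937 to 52820 CPM in WT scrotum, and at most 6037 CPM in any DIK library. Within WT mouth, sums of 98430, 171500 and 176600 CPM went with RRAS at 82.9, 147.7 and 152.5 CPM. In WT scrotum, replicate 2 had the lowest sum (6937 CPM) and the lowest RRAS (23.4 CPM). The libraries of a group did not always follow this: in WT nose, replicate 3 had the highest sum (36200 CPM) and the lowest RRAS (27.8 CPM). In no DIK group was the order of RRAS that of the sum. Of the 10 smooth muscle markers 9 were called lower in the mean over the labels, and the markers at 0 throughout a group were MYOCD in DIK mouth and CNN1 in DIK scrotum. Endothelial markers summed to 76.9 to 162.5 CPM in DIK and 130 to 777.5 CPM in WT libraries. The part of either cell type in the fall of RRAS was not tested.

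RRAS2, also called TC21, a close relative of RRAS, was near the limit of detection. Its counts were 4, 7 and 5 in DIK nose, 7, 4 and 12 in DIK mouth and 6, 15 and 3 in DIK scrotum. They were 0, 0 and 1 in WT nose, 5, 1 and 1 in WT mouth and 3, 0 and 4 in WT scrotum. Scaled to CPM, the group sums of 16, 23 and 24 counts in DIK stood against 1, 7 and 7 in WT, ratios of 11.1 (95% counting interval 1.72 to 463), 4.70 (1.95 to 13.0) and 4.85 (2.03 to 13.3). These intervals cover counting error only. In a fit without a count filter, RRAS2 differed by 2.16 ± 0.82 under the mouth label (edgeR adjusted p = 0.0479), and the nose and scrotum differences of 3.17 ± 1.23 and 2.11 ± 0.83 missed the threshold (edgeR adjusted p = 0.0603 and 0.0635). The mean over the labels in that fit was 2.48 ± 0.56 (edgeR adjusted p = 0.00042). The RRAS2 mouth call was lost without DIK nose replicate 3, DIK mouth replicate 1 or 3, WT nose replicate 1 or WT mouth replicate 2 or 3 (edgeR adjusted p = 0.0545, 0.0918, 0.213, 0.051, 0.16 and 0.115). It was also lost with a replicate block (2.12, edgeR adjusted p = 0.0584) and with scaling by library size alone (1.95, edgeR adjusted p = 0.0764). The nose difference was called without WT mouth replicate 1 or 2 or any 1 of the 3 WT scrotum replicates, and the scrotum difference without DIK scrotum replicate 1 or WT mouth replicate 1 or 2. RRAS2 and RRAS stood on opposite sides of 0 under each label.

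MRAS, the GTPase of the SHOC2 phosphatase complex, was lower in the DIK libraries under each label. It was at 0.728, 1.08 and 0.819 CPM in DIK nose against 3.84, 6.57 and 1.5 CPM in WT nose. It was at 2.21, 1.94 and 1.87 CPM in DIK mouth against 4.67, 7.67 and 3.93 CPM in WT mouth, and at 1.12, 0.715 and 1.88 CPM in DIK scrotum against 5.46, 2.24 and 6.52 CPM in WT scrotum. Under each label the 3 DIK libraries lay below the 3 WT libraries, with a narrow gap under the nose and scrotum labels. Since MRAS could pass the filter only through the WT libraries, this separation is not read as a trait of MRAS. The calls that follow carry the same limit. These MRAS levels rested on few reads: the group sums were 10, 22 and 9 counts in DIK nose, mouth and scrotum against 27, 88 and 50 in WT. MRAS fell by 2.08 ± 0.63 (edgeR adjusted p = 0.0129), 1.43 ± 0.51 (edgeR adjusted p = 0.0286) and 1.98 ± 0.61 (edgeR adjusted p = 0.0137) under the nose, mouth and scrotum labels. Each of these calls rested on single libraries. MRAS under the nose label was -1.11 without WT nose replicate 2 (edgeR adjusted p = 0.252). The mouth call was lost without WT mouth replicate 2 (-1.10, edgeR adjusted p = 0.137) and without each of DIK mouth replicates 1, 2 and 3 (edgeR adjusted p = 0.0614, 0.0788 and 0.0818). The scrotum call was lost without DIK scrotum replicate 1 or 2 or WT scrotum replicate 3 (edgeR adjusted p = 0.0523, 0.0677 and 0.0682). The mean over the labels, -1.83 ± 0.34 (edgeR adjusted p = 0.000122), stayed called without any of these libraries.

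BRAF, the RAF kinase with the highest basal activity, was higher in the DIK libraries. It was at 92.7, 79.4 and 87.4 CPM in DIK nose against 49.9, 24.8 and 45.9 CPM in WT nose. It was at 56.6, 64.6 and 76.0 CPM in DIK mouth against 28.5, 30.7 and 43.0 CPM in WT mouth. It was at 55.6, 64.3 and 103.8 CPM in DIK scrotum against 56.6, 67.7 and 31.1 CPM in WT scrotum. The nose and mouth groups did not overlap, and the scrotum groups did. BRAF was higher by 1.13 ± 0.33 under the nose label (edgeR adjusted p = 0.0106) and by 0.95 ± 0.32 under the mouth label (edgeR adjusted p = 0.0216). Under the scrotum label the difference was 0.52 ± 0.32 (edgeR adjusted p = 0.202, 95% interval -0.16 to 1.19). The nose call was lost without WT nose replicate 2 (0.87, edgeR adjusted p = 0.0673). The mouth call was lost without DIK mouth replicate 3 (edgeR adjusted p = 0.0722), WT mouth replicate 1 (0.0851) or WT mouth replicate 2 (0.0741), and when counts were scaled by library size alone (0.72, edgeR adjusted p = 0.101). The mean over the labels was 0.87 ± 0.19 (edgeR adjusted p = 0.000548). Like HRAS, NRAS and BRAF, the keratinocyte and proliferation marker sums given above were higher in the DIK libraries. They did not follow every gene library by library. WT scrotum replicate 2, with the highest WT keratinocyte sum, had the highest WT levels of HRAS (13.25 CPM) and BRAF (67.7 CPM) but NRAS at 0.611 CPM. DIK nose, with the highest mean BRAF, held the lowest DIK keratinocyte sum (24390 CPM). The part of these markers in the differences was not tested.

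ARAF, the X-linked RAF kinase of low basal activity, was lower in the DIK libraries. It was at 23.3, 20.7 and 33.0 CPM in DIK nose against 101.7, 104.1 and 85.5 CPM in WT nose. It was at 30.7, 41.3 and 30.1 CPM in DIK mouth against 43.5, 47.6 and 42.8 CPM in WT mouth. It was at 49.2, 39.0 and 35 CPM in DIK scrotum against 104.5, 49.5 and 88.8 CPM in WT scrotum. The groups did not overlap under any label, but the gaps were narrow under the mouth and scrotum labels. ARAF fell by 1.91 ± 0.29 under the nose label (edgeR adjusted p = 4.49e-05) and by 0.97 ± 0.28 under the scrotum label (edgeR adjusted p = 0.00865). Under the mouth label it was -0.39 ± 0.27 (edgeR adjusted p = 0.258, 95% interval -0.96 to 0.19). The scrotum call was lost without WT scrotum replicate 1 (-0.75, edgeR adjusted p = 0.054) and when the fit held only the groups compared (-1.03, edgeR adjusted p = 0.0562). The mean over the labels was -1.09 ± 0.16 (edgeR adjusted p = 1.06e-05). Skeletal muscle markers were highest in the groups with the highest ARAF: 11 of them summed to 101900 to 145200 CPM in WT nose and 127800 to 331900 CPM in WT scrotum. Their sum was 1156 to 3508 CPM in WT mouth and at most 934 CPM in any DIK library. All 11 were called lower under each label, and NEB, MYH7, MYL1, TNNT3 and ACTN3 were at 0 throughout DIK mouth. Across groups, similar sums went with different ARAF levels: WT scrotum replicate 2, with a skeletal muscle sum of 127800 CPM, had ARAF at 49.5 CPM. WT nose replicate 1, with a sum of 101900 CPM, had ARAF at 101.7 CPM. Within WT scrotum, sums of 331900, 295600 and 127800 CPM went with ARAF at 104.5, 88.8 and 49.5 CPM. The order of ARAF was also that of the sum within DIK nose, but not within WT nose, WT mouth, DIK mouth or DIK scrotum. The part of muscle tissue in the ARAF values was not tested.

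**Figure D2:**
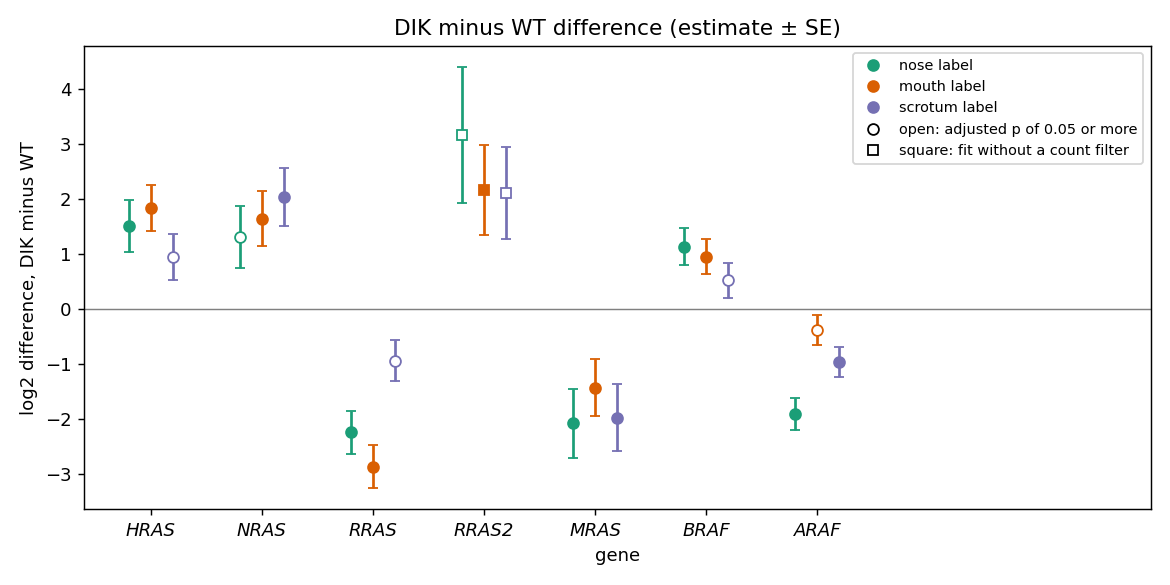
Difference between DIK and WT on the log2 scale for each gene under the nose, mouth and scrotum labels, as estimate ± SE from edgeR, with 3 libraries in each group; filled symbols have an adjusted p under 0.05, and RRAS2, drawn as squares, is from the fit without a count filter. HRAS, NRAS, RRAS2 and BRAF lie above 0 under each label, and RRAS, MRAS and ARAF lie below it.

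Separation of the groups was common in this table. The ranges of the 3 DIK and 3 WT libraries did not overlap for 6 of the 6 tested members under the nose label, where this held for 54.3% of all genes. It held for 6 of 6 under the mouth label (58.7% of all genes) and for NRAS, MRAS and ARAF, 3 of 6, under the scrotum label (51.2%).

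A ratio of 2 genes within a library does not depend on how the libraries were scaled. BRAF made up 53.1% to 79.9% of the BRAF and ARAF counts in the DIK libraries and 19.3% to 57.7% in the WT libraries. BRAF counts exceeded ARAF counts in 9 of 9 DIK libraries and 2 of 9 WT libraries, WT mouth replicate 3 (164 against 163) and WT scrotum replicate 2 (332 against 243). Without WT scrotum replicate 2 the highest WT share was 50.2%. The mean BRAF share was 77.3% ± 4.08 (SD, n = 3) in DIK nose and 29.0% ± 8.53 (SD, n = 3) in WT nose, 65.8% ± 5.37 and 43.0% ± 6.21 in DIK and WT mouth, and 63.4% ± 10.9 and 39.6% ± 16.4 in DIK and WT scrotum. The libraries of a group differed by more than counting error (chi-square per degree of freedom over all genes of 6.90 to 168 between replicates). Transcript lengths were not used, so a share above 50% of counts does not say that a cell held more BRAF than ARAF transcripts. HRAS counts per RRAS count were 0.615 to 1.21 in the DIK libraries and 0.0194 to 0.565 in the WT libraries, and at most 0.162 in WT without WT scrotum replicate 2. Each pair joins a gene found higher in the DIK libraries with one found lower, so the separation of the ratios follows from the single genes and adds no evidence. Neither ratio was tested, since both genes of each pair had been tested singly.

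**Figure D3:**
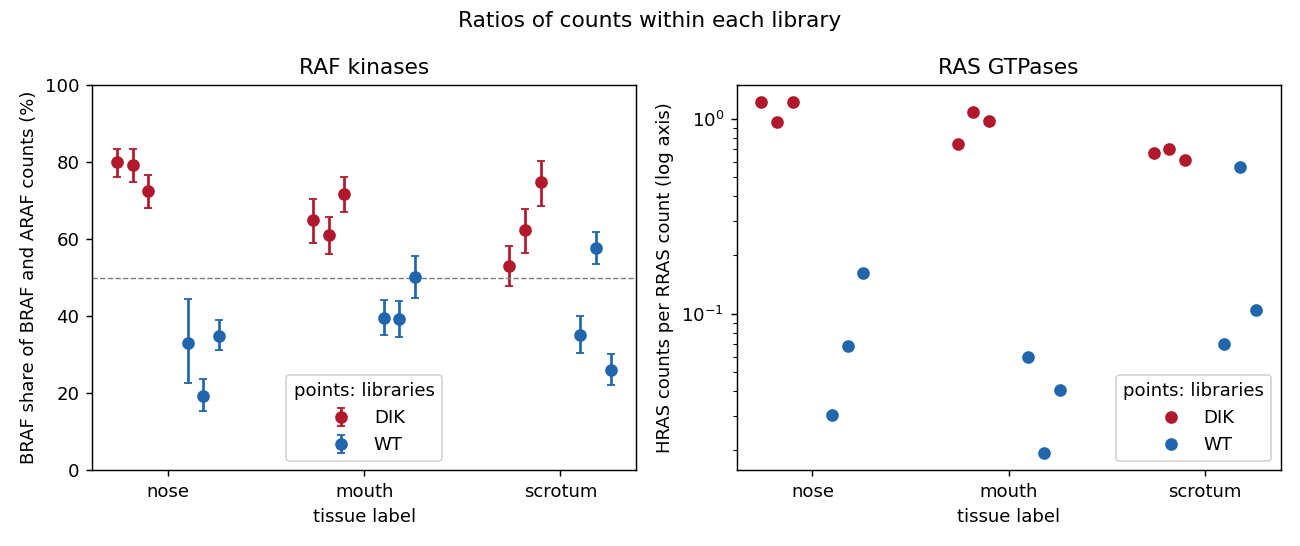
Left, the share of BRAF in the sum of BRAF and ARAF counts, in percent, with exact 95% binomial intervals that cover counting error only; right, HRAS counts per RRAS count on a log axis; points are the 18 libraries by group. The 9 DIK libraries are at 53.1% to 79.9% and at 0.615 to 1.21, and the highest WT library in both panels is WT scrotum replicate 2.

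The DIK minus WT difference itself depended on the label for ARAF and RRAS. The ARAF difference was nearer 0 under the mouth label than under the nose label, by 1.52 ± 0.39 (edgeR adjusted p = 0.0208, 0.00101 to 0.069 over the alternatives), 1 of 6 members where 8.60% of all genes were called. The RRAS difference was nearer 0 under the scrotum label than under the mouth label, by 1.93 ± 0.53 (edgeR adjusted p = 0.0209, 0.00243 to 0.0657 over the alternatives), 1 of 6 members where 13.1% were called. The ARAF call was lost without DIK nose replicate 1 or 2, DIK mouth replicate 2, WT nose replicate 2 or WT mouth replicate 3 (edgeR adjusted p = 0.0622, 0.053, 0.069, 0.0525 and 0.0526). The RRAS call was lost without DIK mouth replicate 1, DIK scrotum replicate 2 or WT mouth replicate 2 (edgeR adjusted p = 0.06, 0.0657 and 0.0528). Between the scrotum and nose labels 0 of 6 members were called by edgeR, DESeq2 or limma-voom (7.65% of all genes by edgeR), and ARAF and RRAS had an unadjusted p under 0.05. Their differences there were 0.94 ± 0.39 for ARAF (edgeR adjusted p = 0.145) and 1.31 ± 0.54 for RRAS (edgeR adjusted p = 0.142).

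Both genes differed between normal tissues. WT mouth had more RRAS than WT nose, by 1.33 ± 0.38 (edgeR adjusted p = 0.0159), and less ARAF, by -1.12 ± 0.28 (edgeR adjusted p = 0.00701), 2 of 6 members where 19.8% of all genes were called. WT scrotum had less RRAS than WT mouth, by -1.57 ± 0.37 (edgeR adjusted p = 0.00444), and more ARAF, by 0.86 ± 0.27 (edgeR adjusted p = 0.0295), again 2 of 6 (23.0%). RRAS between WT mouth and WT nose was no longer called without WT nose replicate 3 (1.01, edgeR adjusted p = 0.0965), WT mouth replicate 2 (0.0651) or WT mouth replicate 3 (0.0527). ARAF between WT scrotum and WT mouth was no longer called without any 1 of WT mouth replicates 1, 2 and 3 and WT scrotum replicates 1 and 3, or with scaling by library size alone (0.34, edgeR adjusted p = 0.381). Between WT scrotum and WT nose 0 of 6 were called by edgeR (6.05% of all genes), 0 had an unadjusted p under 0.05, and 0 were called by DESeq2 or limma-voom.

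Between the tumours no member was called by edgeR. That was 0 of 6 for DIK mouth and DIK nose (1.54% of all genes) and 0 of 6 for DIK scrotum and DIK mouth (2.88%), with 0 at an unadjusted p under 0.05 and 0 by DESeq2 and limma-voom in both. Between DIK scrotum and DIK nose (5.84% of all genes) edgeR and DESeq2 called 0 and limma-voom called 2, and ARAF and RRAS had an unadjusted p under 0.05. DIK scrotum had more RRAS by 1.07 ± 0.39 (edgeR adjusted p = 0.117) and more ARAF by 0.68 ± 0.28 (edgeR adjusted p = 0.17).

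The order of the levels was as follows. NRAS ran from DIK scrotum (4.46 ± 1.75 CPM, SD, n = 3) over DIK mouth (3.72 ± 1.03) and DIK nose (3.23 ± 0.471) to WT scrotum (1.18 ± 0.537), WT mouth (1.15 ± 0.336) and WT nose (0.884 ± 0.971), and DIK nose and WT scrotum were the only neighbours whose libraries did not overlap. RRAS was highest in WT mouth (127.7 ± 38.9 CPM), which overlapped no other group, then WT nose (51.7 ± 20.7), WT scrotum (43.2 ± 17.1) and DIK scrotum (22.2 ± 5.53), each overlapping the next, then DIK mouth (17.4 ± 2.49), which overlapped DIK scrotum, and DIK nose (10.7 ± 3.22), which did not overlap DIK mouth. ARAF was highest in WT nose (97.1 ± 10.1 CPM) and WT scrotum (80.9 ± 28.3), which overlapped, then, below a gap, WT mouth (44.6 ± 2.61), DIK scrotum (41.0 ± 7.32), DIK mouth (34.0 ± 6.29) and DIK nose (25.7 ± 6.49), each overlapping the next. For HRAS (DIK mouth highest at 16.4 ± 4.97, WT nose lowest at 3.60 ± 1.45 CPM), BRAF (DIK nose at 86.5 ± 6.70, WT mouth at 34.1 ± 7.83 CPM), MRAS (WT mouth at 5.42 ± 1.98, DIK nose at 0.875 ± 0.181 CPM) and RRAS2 every neighbouring pair of groups overlapped.

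The genes most like each member were those at the smallest root mean square distance between log2 CPM profiles centred on their own mean over the 18 libraries, a description that shares the libraries and their scaling. For HRAS they were RIN1 (0.34), a RAS effector and RAB5 exchange factor, SLC10A3 (0.35) and TSPO (0.38), against a spread of HRAS itself of 0.90. For NRAS they were PPP4C (0.35), a phosphatase subunit, MAP3K11 (0.35) and SNX8 (0.38), against 0.90. For RRAS they were ANGPTL2 (0.38), SORBS3 (0.40), the adhesion protein vinexin, and PDLIM7 (0.44), against 1.21. For MRAS they were SLC22A5 (0.44), a carnitine transporter, LRRC28 (0.47) and SMIM10L1 (0.48), against 0.88. For BRAF they were UBE4B (0.27), CSNK1G1 (0.27) and MAP3K5 (0.28), against 0.59. For ARAF they were SPG7 (0.27), a mitochondrial protease, TMEM170A (0.28) and MRPS5 (0.29), a mitochondrial ribosomal protein, against 0.71.

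Around these genes, the pathway moved in both directions, and the counts that follow are for the mean over the labels (all genes: 31.2% higher, 33.0% lower, median -0.04). Of 22 other RAS family GTPases 17 were tested, of which 7 rose, 8 fell and 2 were not called (median -0.29). RALB, a GTPase of vesicle traffic, rose by 1.96 ± 0.16 and RAP2B by 2.47 ± 0.28, while RASL12 fell by 2.98 ± 0.25 and RAP1A, a GTPase of integrin adhesion, fell by 1.54 ± 0.19. Both differences were furthest from 0 under the mouth label. RASL12 was at 108.2 to 287.6 CPM in WT mouth, 5.09 to 11.5 CPM in WT nose and WT scrotum and 1.79 to 5.06 CPM in the DIK libraries, and its differences were -1.63 ± 0.44, -5.76 ± 0.45 and -1.54 ± 0.44 under the nose, mouth and scrotum labels (edgeR adjusted p = 0.00637, 9.66e-08 and 0.00918). The RASL12 difference under the mouth label was -4.13 ± 0.61 from that under the nose label (edgeR adjusted p = 0.000351), a call kept without any 1 of the 18 libraries. RAP1A was at -0.81 ± 0.32, -2.59 ± 0.33 and -1.20 ± 0.32 (edgeR adjusted p = 0.0521, 7.2e-06 and 0.00562), so that it was not called under the nose label. WT mouth, where both genes were highest, was also the group with the highest smooth muscle marker sum, whose part was not tested. Of 14 activators and adaptors 11 were tested, of which 4 rose, 3 fell and 4 were not called (median 0.33). The phosphatase PTPN11, which carries receptor signals to RAS, rose by 1.12 ± 0.16 and the docking protein GAB1 by 0.92 ± 0.17. The exchange factor RASGRP3 fell by 1.60 ± 0.20, and RABEP1, known as an effector of RAB5 more than as a RAS activator, fell by 1.26 ± 0.16.

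Of 10 GTPase-activating proteins, which switch RAS off, 7 were tested, of which 5 rose and 2 fell (median 1.27). RASA2 rose by 1.56 ± 0.21 and RASA1 by 1.27 ± 0.21. NF1, which encodes neurofibromin, fell by 0.89 ± 0.20 and RASA3 fell by 0.91 ± 0.24. By label each was called only once. NF1 was at -0.48 ± 0.35, -1.69 ± 0.34 and -0.50 ± 0.34 under the nose, mouth and scrotum labels (edgeR adjusted p = 0.285, 0.000556 and 0.243), and RASA3 at -1.31 ± 0.44, -0.82 ± 0.39 and -0.59 ± 0.40 (edgeR adjusted p = 0.0236, 0.0902 and 0.245). The RASA3 nose call was lost without DIK nose replicate 2 or 3 or WT nose replicate 3 (edgeR adjusted p = 0.0508, 0.076 and 0.244). No difference between labels was called by edgeR for NF1 or RASA3. Of 14 other RAS effectors 12 were tested, of which 7 rose, 2 fell and 3 were not called (median 0.74). TIAM1, an exchange factor for RAC, rose by 4.84 ± 0.58 and AFDN, the junction protein afadin, by 1.69 ± 0.23. TIAM1 was at 6.37 ± 1.15 under the nose label and 6.34 ± 1.04 under the mouth label (edgeR adjusted p = 0.00061 and 0.00023), and at 1.81 ± 0.77 under the scrotum label (edgeR adjusted p = 0.0731). WT scrotum replicate 2 held the highest WT level of TIAM1, 29.1 CPM, and without it the scrotum difference was 5.28 (edgeR adjusted p = 3.34e-09). The RAL exchange factor RGL1 fell by 2.19 ± 0.22 and the phospholipase PLCE1 fell by 2.79 ± 0.44. Of 10 enzymes and partners of RAS lipid processing 10 were tested, of which 3 rose, 0 fell and 7 were not called (median 0.23), with the thioesterase LYPLA2 at 1.97 ± 0.21 and GOLGA7, the partner of a RAS palmitoyltransferase, at 0.66 ± 0.15.

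Below RAF, 16 of 17 kinases and scaffolds were tested, of which 8 rose, 2 fell and 6 were not called (median 0.32). IQGAP1, a scaffold for RAF, MEK and ERK, rose by 1.43 ± 0.15 and CNKSR3 by 1.75 ± 0.22. PEBP1, the RAF kinase inhibitor protein, fell by 1.13 ± 0.15 and the phosphatase subunit PPP1CC fell by 1.04 ± 0.18. The 14-3-3 proteins, which bind phosphorylated RAF and many other proteins, were all tested, and 7 of 7 rose (median 1.54). YWHAZ rose by 3.47 ± 0.30 and YWHAQ by 1.93 ± 0.18. Of the other genes named here from these lists, PLCE1 was not called under the nose label, GOLGA7 and PPP1CC under the mouth label, or PTPN11, GAB1 and GOLGA7 under the scrotum label. In the mean over the labels each gene named from these lists had an edgeR adjusted p of at most 0.00266, the value of RASA3. The keratinocyte and smooth muscle marker sums given above also differed between DIK and WT libraries, and their part in the values of these genes was not tested.

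**Figure D4:**
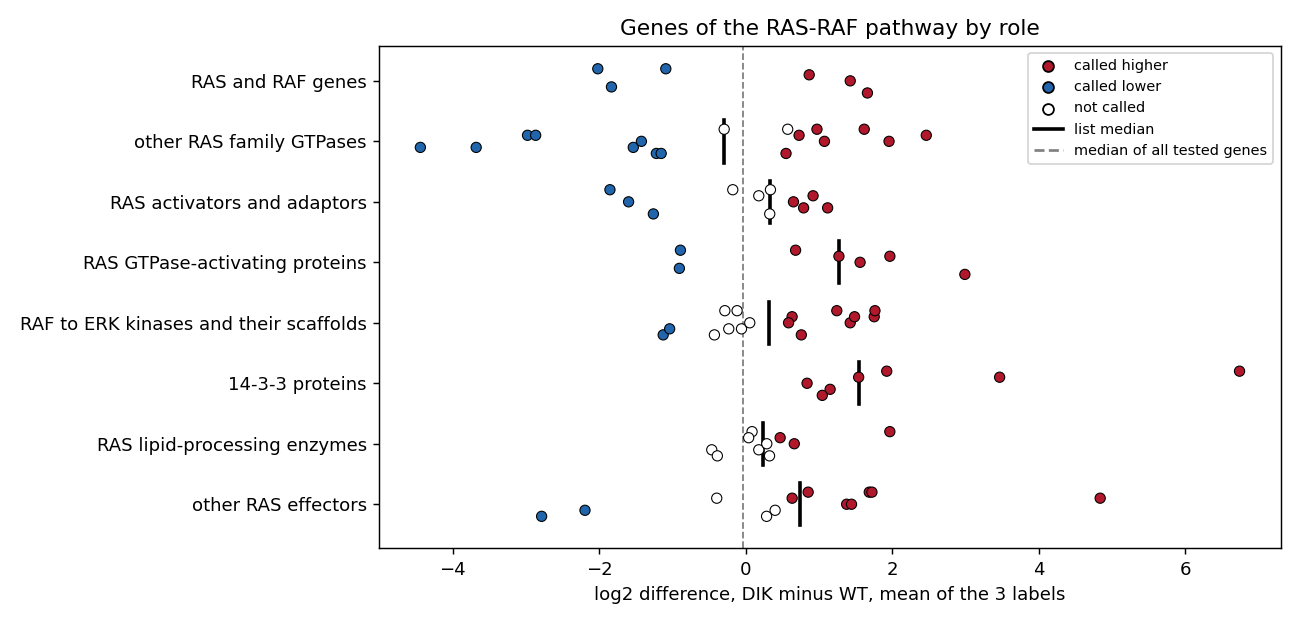
Mean over the 3 labels of the log2 difference between DIK and WT for the tested genes of each pathway list; points are genes, coloured where edgeR called them, bars are list medians (none for the RAS and RAF genes) and the dashed line is the median of all 12895 genes tested, at -0.04. The 7 genes for 14-3-3 proteins all lie above 0, and every other list holds genes on both sides of 0.

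The following genes were chosen after their values were seen, for their place next to the members. SHOC2, the partner of MRAS, was higher under each label, by 2.40 ± 0.42, 1.80 ± 0.37 and 1.09 ± 0.37 for nose, mouth and scrotum (edgeR adjusted p = 0.000201, 0.000697 and 0.0244). PPP1CA, a catalytic subunit that can complete the complex, was higher by 1.5 ± 0.40, 1.69 ± 0.38 and 1.27 ± 0.38 (edgeR adjusted p = 0.00554, 0.00146 and 0.012). Other catalytic subunits were not called higher. PPP1CC was at -1.07 ± 0.32, -0.39 ± 0.31 and -1.65 ± 0.33 (edgeR adjusted p = 0.0122, 0.315 and 0.000524). PPP1CB was at 0.27 ± 0.26, 0.05 ± 0.26 and -0.15 ± 0.26 (edgeR adjusted p = 0.435, 0.898 and 0.672). The scrotum calls were lost without DIK scrotum replicate 1 or WT scrotum replicate 3 for SHOC2 (edgeR adjusted p = 0.0809 and 0.105), and without DIK scrotum replicate 1 or WT scrotum replicate 1 for PPP1CA (edgeR adjusted p = 0.0662 and 0.0608).

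MAP2K1 and MAP2K2 encode the MEK kinases and MAPK3 an ERK kinase. MAP2K1 was lower under the nose label (-1.62 ± 0.44, edgeR adjusted p = 0.00694) and was at 0.86 ± 0.43 under the mouth label (edgeR adjusted p = 0.104), a difference of 2.48 ± 0.62 between them (edgeR adjusted p = 0.0171). The call of that MAP2K1 difference was lost without DIK nose replicate 1, DIK mouth replicate 2 or WT nose replicate 3 (edgeR adjusted p = 0.0526, 0.0589 and 0.0574), and the mouth value alone was called without WT scrotum replicate 1 (edgeR adjusted p = 0.0427). MAP2K2 was higher under the mouth label (1.48 ± 0.33, edgeR adjusted p = 0.0014), and was at 0.16 ± 0.33 under the nose label and 0.26 ± 0.33 under the scrotum label (edgeR adjusted p = 0.739 and 0.544). Its mean over the labels was 0.63 ± 0.19 (edgeR adjusted p = 0.00711). The mean of MAPK3 was -0.23 ± 0.19 (edgeR adjusted p = 0.286). With scaling by library size alone the mean of MAP2K2 was no longer called (0.47, edgeR adjusted p = 0.0706). SFN, the 14-3-3 protein of stratified epithelium, was higher by 6.74 ± 0.91 in the mean over the labels (edgeR adjusted p = 1.67e-05). By label it was at 7.21 ± 1.61, 9.31 ± 1.74 and 3.72 ± 1.35 for nose, mouth and scrotum (edgeR adjusted p = 0.0028, 0.000657 and 0.0387). The WT scrotum libraries ran from 4.51 to 1615 CPM of SFN.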

How the data were processed

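Gene counts were deposited by the authors as whole numbers, not normalized, for 18 pig libraries. The submitters' processing notes name fastp, HISAT2 2.1.0 and HTSeq 0.11.2; they list neither genome build nor strand setting, so reads of overlapping genes cannot be told apart. Groups came from the sample labels. Counts of all genes were fitted with edgeR 4.0.16 (R 4.3.3) in 1 quasi-likelihood model of 6 group means with TMM scaling. The filter (filterByExpr, minimum count 10, minimum total 15) left 12895 of 27339 genes. Adjusted p-values are Benjamini-Hochberg over all genes tested in each of 13 contrasts, and 0.05 was the threshold. CPM (counts-per-million) use the TMM-scaled library size; log2 differences carry the SE of the fit. Total counts were 418665 to 5041470. The common coefficient of biological variation was 36.1%. The scripts were tested on simulated data. Alternatives were RLE, upper-quartile or library-size scaling, other count filters, DESeq2 1.42.0, limma-voom (limma 3.58.1) with sample weights, only the groups compared, a replicate block, stricter thresholds and each library left out. A fit that leaves out both the shallow WT nose replicate 1 and WT scrotum replicate 2 was added after seeing the data.

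The members and gene lists were chosen with earlier results of these data known. Genes named were the 7 members, the 3 genes nearest to each in profile, and up to 2 genes per direction with the smallest adjusted p from each list; others are marked in the text. A planned comparison of protein sequences was not run because no protein sequences were used here. All 7 members matched RefSeq gene records by symbol. Some genes of the table are not reported here.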

Additional observations from a re-analysis of the deposited data

Results flagged for a closer look

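The DIK minus WT difference of ARAF differed between the mouth and nose labels, by a test of the difference itself: 1.52 ± 0.39 (edgeR adjusted p = 0.0208), with ARAF at -1.91 ± 0.29 under the nose label and -0.39 ± 0.27 under the mouth label. The difference of RRAS differed between the scrotum and mouth labels by the same kind of test: 1.93 ± 0.53 (edgeR adjusted p = 0.0209), with RRAS at -2.87 ± 0.39 under the mouth label and -0.94 ± 0.38 under the scrotum label. The MAP2K1 difference was 2.48 ± 0.62 higher under the mouth label than under the nose label (edgeR adjusted p = 0.0171) by the same kind of test, for a gene chosen after its values were seen.

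Of the genes named from the pathway lists, 5 also had a DIK minus WT difference that depended on the label by edgeR. The RASL12 difference was -4.13 ± 0.61 (edgeR adjusted p = 0.000351) for mouth minus nose and 4.22 ± 0.62 (edgeR adjusted p = 0.00021) for scrotum minus mouth, and both calls stood with any 1 of the 18 libraries left out. YWHAQ stood 1.73 ± 0.43 higher for scrotum minus mouth (edgeR adjusted p = 0.0114), a call that also stood with any 1 library left out. For scrotum minus nose YWHAQ was at 1.43 ± 0.43 (edgeR adjusted p = 0.0465), a call lost in 15 of the 18 fits with 1 library left out, all but those without WT mouth replicate 1 or WT scrotum replicate 2 or 3 (edgeR adjusted p up to 0.113). IQGAP1 was at 1.28 ± 0.36 for scrotum minus mouth (edgeR adjusted p = 0.0236), a call lost without DIK mouth replicate 2 or 3, DIK scrotum replicate 2, WT mouth replicate 3 or WT scrotum replicate 1 (edgeR adjusted p up to 0.0769). For scrotum minus nose IQGAP1 was at 1.22 ± 0.37 (edgeR adjusted p = 0.0474), lost in 15 of 18 such fits, all but those without WT mouth replicate 1 or 3 or WT scrotum replicate 2 (edgeR adjusted p up to 0.119). RAP1A was at -1.79 ± 0.45 for mouth minus nose (edgeR adjusted p = 0.0189), a call lost without DIK nose replicate 1, DIK mouth replicate 2 or 3, WT nose replicate 2 or WT mouth replicate 2 (edgeR adjusted p up to 0.0589). For scrotum minus mouth RAP1A was at 1.39 ± 0.45 (edgeR adjusted p = 0.0464), lost in 14 of 18 such fits, all but those without DIK mouth replicate 1, WT mouth replicate 1 or WT scrotum replicate 1 or 3 (edgeR adjusted p up to 0.12). TIAM1 was at -4.53 ± 1.29 for scrotum minus mouth (edgeR adjusted p = 0.0317), and at -1.07 without WT scrotum replicate 2 (edgeR adjusted p = 0.418). That TIAM1 call was also lost without any 1 of the other 9 libraries of the mouth labels and DIK scrotum (edgeR adjusted p up to 0.0822).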

How the results depend on the processing

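None of the 1063 alternative values of the 6 tested members changed sign: 992 stayed on their side of the threshold, 50 fell below it and 21 passed it. The stricter thresholds reuse the main estimate, so their values could not change sign. Among the members, values for differences between labels were followed for RRAS and ARAF only. In the mean over the labels the 6 members stayed called under every alternative that tested them, except BRAF where a 2-fold change was required. The filter of at least 10 CPM in 3 libraries left out NRAS and MRAS, and the mean over the labels could not be fitted from only the groups compared. At an adjusted p under 0.01 the members called higher were 0 (nose) and 1 (mouth), those called lower were 1 (mouth) and 1 (scrotum), and those that depended on the label were 0 for mouth minus nose and 0 for scrotum minus mouth; between WT mouth and WT nose and between WT scrotum and WT mouth 1 was left in each. With at least 10 CPM in 3 libraries 1 was lower (mouth) and 0 higher (scrotum). With limma-voom 2 were higher (scrotum) and 2 differed between DIK scrotum and DIK nose. With only the groups compared 0 were higher and 0 lower (scrotum), 1 differed between WT scrotum and WT mouth and 1 between DIK scrotum and DIK nose. With a 2-fold change required 1 was lower (scrotum). That setting, scaling by library size alone and no count filter each left 1 between WT scrotum and WT mouth. With both the shallow WT nose replicate 1 and WT scrotum replicate 2 left out, 2 were higher (scrotum): NRAS and HRAS. Same-numbered replicates did not deviate together (correlations -0.22 to 0.19, 7 of 45 pairs over 0.1, 6 of 18 libraries closest to their own number), and with a replicate block 2 members were higher (scrotum), HRAS at 1.04 (edgeR adjusted p = 0.042) joining NRAS.

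Leaving out 1 library gave 1 to 3 higher and 2 to 3 lower (nose), 2 to 4 higher and 1 to 2 lower (mouth), 1 to 2 higher and 1 to 3 lower (scrotum), 3 to 4 higher and 3 lower (mean). RRAS2 could pass the count filter in these fits and was then counted, so a count of 4 includes it. A count of 2 higher (scrotum) also includes RRAS2, except without WT scrotum replicate 2, where HRAS was called. With 1 library left out there were 0 to 1 for each label dependence that was called and 1 to 2 for each pair of WT labels that was called. Between DIK scrotum and DIK nose there were 0 to 1. RRAS under the scrotum label, not called, was called under several alternatives (upper-quartile scaling, edgeR adjusted p = 0.0345; library size alone, 0.0385). DESeq2 gave no adjusted p for 9 values of SFN and TIAM1, which are left out. Of 5985 other values of 48 further genes, 5697 stayed on their side, and 2 changed sign: MAP2K1 under the scrotum label (-0.38 to 0.62 with 1 library left out) and MAPK3 there (-0.24 to 0.12). Scaling by library size alone moved the median of all genes under the mouth label from -0.04 to -0.29, and the share of calls that were higher from 48.2% to 36.1%. Low counts limit NRAS, MRAS and RRAS2.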
